A study of Oryza sativa with 6 samples.

Results

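Ascorbate peroxidases of rice (Oryza sativa) are described here in leaves of wild type plants and of transgenic plants that overexpress the GATA factor OsCGA1, a transcriptional regulator. The members were all probe sets assigned to a single gene whose symbol or synonym in the gene annotation was APX1 to APX8, with or without the prefix Os. This gave 10 probe sets for 7 genes, out of 57381 probe sets on the array, on which 17905 genes had at least 1 single-gene probe set. APX2 had 4 probe sets and APX1, APX4, APX5, APX6, APX7 and APX8 had 1 each. APX3 is in the gene table without a single-gene probe set and was not analysed here. RNA came from leaves of 4-week-old plants kept on a day of 16 h (28 °C) and a night of 8 h (23 °C), and was hybridized to a 1-colour Affymetrix Rice Genome Array. The wild type group (WT) and the transgenic overexpression group (OX) each had 3 biological replicates, and growth conditions, age and tissue were shared. The cultivar, the promoter of the transgene and the number of transgenic lines were not given in the sources used here, and OsCGA1 itself was not analysed here.

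Ascorbate peroxidase reduces hydrogen peroxide to water with ascorbate as electron donor, the first step of the ascorbate-glutathione cycle. The oxidised ascorbate is returned by monodehydroascorbate and dehydroascorbate reductases, the latter fed by glutathione and glutathione reductase. Leaves keep separate isoforms in several compartments, because peroxide arises in chloroplasts from photosynthetic electron transport, in peroxisomes from photorespiratory glycolate oxidation and in mitochondria from respiration. In rice, APX1 and APX2 are the cytosolic isoforms and APX3 and APX4 the peroxisomal ones. APX5 and APX6 are grouped here as mitochondrial, although predictions for both also name the plastid. APX7 is the stromal and APX8 the thylakoid isoform of the plastid. These assignments are background and were not measured.

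The values are MAS5 signals, linear probe set intensities already scaled between arrays. Median signals were 16.8, 18.2 and 18.7 on WT arrays 1, 2 and 3 and 14.7, 16.2 and 15.8 on the OX arrays, without overlap. Signals were compared as log2(signal + 3) with limma, fitted to the 28456 probe sets whose mean signal was at least 16.8. All 10 members passed that filter. "Rose" and "fell" are used only for an adjusted p under 0.05 over all 28456 (Benjamini-Hochberg), "log2 change" means OX minus WT, and values after ± are standard errors of it unless SD is named. Folds are on the log2(signal + 3) scale. Signals of different probe sets are not compared in level, since probes differ in brightness. Of 7 leaf marker genes (such as rca, the rubisco small subunit and light-harvesting genes), 6 were above the filter, and their summed signal over all 7 was 45452 to 53422 in WT and 36489 to 42239 in OX. Of 7 root marker genes (silicon, iron, manganese and sodium transporters), 6 were also above the filter. Of these 3 fell, against 8% of all 14616 tested genes at 1 probe set each, and IRT1 passed only narrowly (adjusted p 0.0491 from limma). The sums over all 7 were 698.9 to 732.7 in WT and 293.2 to 333.2 in OX. No root marker was at 0 on every array, but the lowest gene mean was 0.97, far below the filter. Of 9 seed storage genes 4 were above the filter, with sums of 679.3 to 763.8 in WT and 605.4 to 720.1 in OX. None of the 9 was at 0 on every array, but the lowest gene mean was 0.72. Being above 0 therefore does not show that a marker was detected. The 3'/5' signal ratio of actin, a sign of RNA quality, was 1.53 to 2.01 in WT and 2.16 to 3.40 in OX for 1 pair of control probe sets and 2.38 to 3.11 and 3.25 to 7.29 for another, while it overlapped between the genotypes for the last actin pair and for GAPDH. The array medians, the leaf and root sums and 2 of the 3 actin ratios separated the genotypes. Their part in the results below was not tested, apart from quantile normalization, which makes the array medians equal. In bulk leaf RNA, a larger share of cells with a transcript and more transcript per cell cannot be told apart.

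Transcripts of 3 ascorbate peroxidase genes were more abundant in OX, namely the mitochondrial isoforms APX5 and APX6 and the stromal isoform APX7. APX5 had the largest change of the 7 genes, with a 2.39-fold rise, while APX7 rose 1.64-fold and APX6 1.53-fold. No member fell by limma, although 4 members higher and 2 members lower in OX had an unadjusted p under 0.05, as did 33.1% of all tested probe sets. Among all tested probe sets 16.1% passed, 8.65% higher and 7.44% lower. Counted with 1 probe set per gene, the one with the highest mean signal, 3 of 7 APX genes rose, against 11.1% of 14616 genes. The median log2 change of the 7 genes was 0.62, and that of all 14616 genes was -0.02. With so few genes, these figures are a description of the family.

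**Figure D1:**
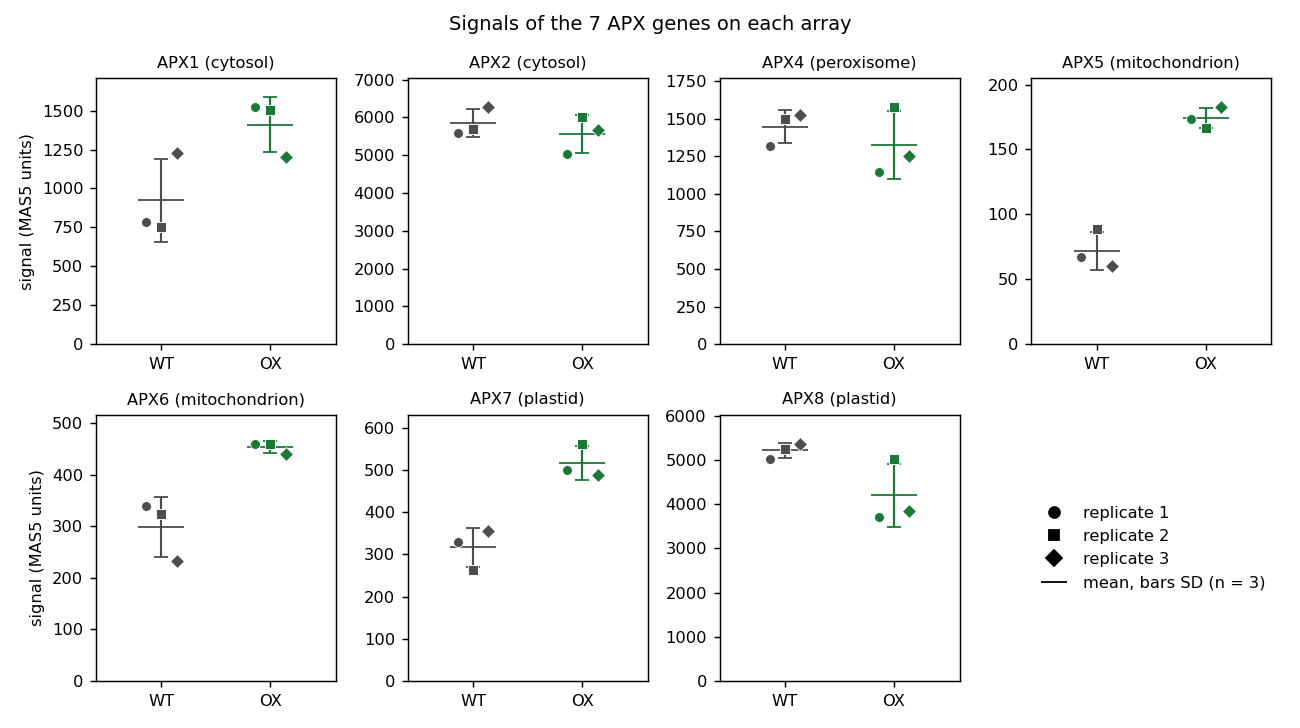
Signal in MAS5 units on each of the 6 arrays for 7 ascorbate peroxidase genes, 1 panel per gene with its own axis from 0 (for APX2 the probe set with the highest mean). Points are single arrays of wild type (WT) and OsCGA1 overexpression (OX), and bars are the mean and SD of 3 arrays. APX5, APX6 and APX7 are higher on every OX array than on any WT array, and APX8 is lower.

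The cytosolic isoforms APX1 and APX2 are soluble enzymes that remove peroxide reaching the cytosol from other compartments. APX1 (LOC4332474) read 782.3, 755.2 and 1230.8 on WT arrays 1, 2 and 3 and 1523.6, 1503.0 and 1204.8 on the OX arrays. WT replicate 3 stood well above the other two WT arrays and slightly above OX replicate 3, so the groups overlapped. The log2 change was 0.64 ± 0.20 with an adjusted p of 0.061 from limma, and its 95% interval ran from 0.19 to 1.09. Without WT replicate 3 it was 0.87 with an adjusted p of 0.0141 from limma. Of the 14 alternative settings this was the only one in which APX1 passed. Leaving out any other single array gave an adjusted p from 0.0816 to 0.181 from limma.

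The probe set of APX2 with the highest signal, whose name ends in S1_a_at, read 5577.4, 5703.5 and 6277.0 in WT and 5028.9, 6016.8 and 5664.5 in OX. These groups overlapped, and the log2 change was -0.07 ± 0.10, with a 95% interval from -0.31 to 0.16 and an adjusted p of 0.652 from limma. After quantile normalization, which equalises the signal distributions of the arrays, it was 0.17, so its direction is not settled. The other probe sets of APX2 did not move together. The probe set ending in x_at, a suffix that marks probes that can also bind other transcripts, read 2678.6 to 2984.7 in WT and 3144.5 to 3434.6 in OX without overlap. Its log2 change was 0.20 ± 0.09 with an adjusted p of 0.166 from limma, and 0.33 with an adjusted p of 0.0248 after quantile normalization. The probe set ending in S1_at read 51.8 to 79.6 in WT and 71.0 to 87.5 in OX, with overlap and a log2 change of 0.30 ± 0.19. The probe set ending in S2_at read 25.4 to 30.7 in WT and 14.2 to 19.8 in OX, where every OX array was lower, with a log2 change of -0.70 ± 0.27 and an adjusted p of 0.11 from limma. Its OX mean of 16.1 lay below the filter value of 16.8, and detection calls were not used here, so the size of this difference is uncertain.

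**Figure D2:**
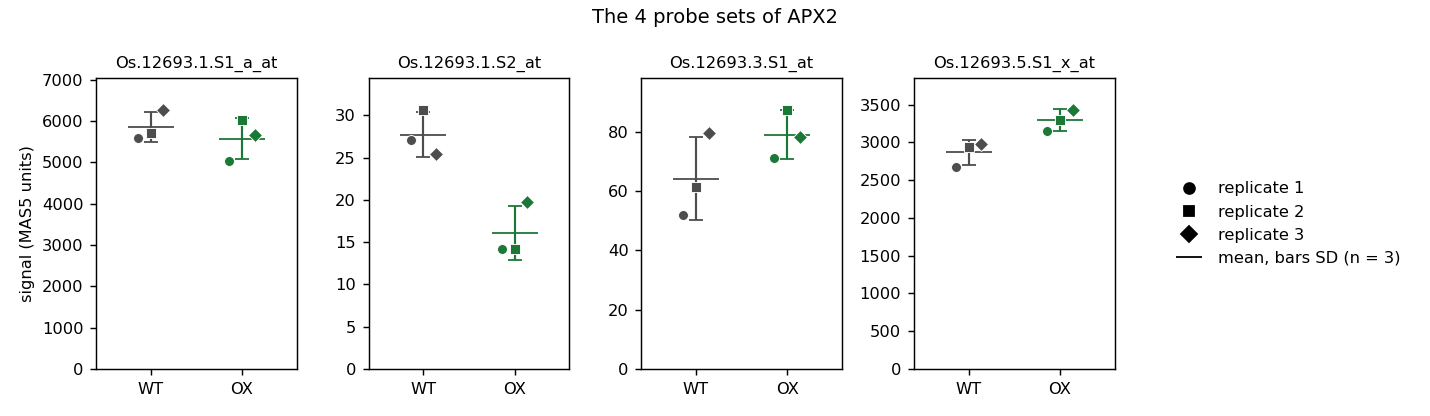
Signal in MAS5 units on each array for the 4 probe sets of APX2, 1 panel each with its own axis from 0, with points for single arrays and bars for the mean and SD of 3 arrays. 1 probe set is higher on all OX arrays, 1 is lower on all of them and the other two overlap between genotypes.

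The peroxisomal isoform APX4 (LOC4346247), a membrane-bound enzyme that meets peroxide leaving the photorespiratory organelle, gave signals of 1321.6, 1497.4 and 1525.9 in WT. The OX arrays gave 1144.5, 1578.7 and 1251.0, so that OX replicate 2 was the highest of all and OX replicate 1 the lowest. The log2 change was -0.14 ± 0.13 with a 95% interval from -0.45 to 0.17 and an adjusted p of 0.506 from limma. The coefficient of variation was 17.1% in OX and 7.64% in WT.

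Among the mitochondrial isoforms, APX5 (LOC4351664) read 67.5, 88.5 and 60.2 in WT and 173.2, 166.9 and 182.8 in OX. The lowest OX array was nearly double the highest WT array. The log2 change was 1.26 ± 0.16, with a 95% interval from 0.88 to 1.63 and an adjusted p of 0.00304 from limma. By p-value it stood at rank 526 of the 28456 tested probe sets, and 3.26% of them had a change at least as high. APX5 passed in all 14 alternative settings, with log2 changes from 1.14 to 1.41.

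APX6 (LOC4351663) read 340.1, 323.5 and 232.3 in WT and 460.6, 459.9 and 440.8 in OX. All OX arrays were higher than all WT arrays, and the OX arrays lay close together, with a coefficient of variation of 2.48% against 19.4% in WT. The log2 change was 0.62 ± 0.15, with a 95% interval from 0.27 to 0.97 and an adjusted p of 0.0308 from limma. The direction held in all 14 alternatives, but the call ended in 6 of them. Of these 4 left out an array, with an adjusted p from limma of 0.0628 without WT replicate 2, 0.0594 without WT replicate 3, 0.0677 without OX replicate 1 and 0.0813 without OX replicate 3. About 10.2% of tested probe sets had a change at least as high.

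APX5 and APX6 lie next to each other on chromosome 12, with 0 annotated genes between them in the RefSeq gene table. Of the 3 genes on either side of this pair, LOC9269277 was the only one with a tested probe set, and its log2 change was -0.10 with an adjusted p of 0.813 from limma. The change of APX5 exceeded that of APX6 by 0.64 ± 0.15 on the log2 scale. The difference between their log2 signals separated the arrays without overlap (exact permutation p = 0.1, two-sided, n = 3 per genotype), which is the smallest p that 3 arrays against 3 allow.

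The plastid isoforms had changes of opposite sign, of which that of APX8 did not pass. APX7 (LOC4335896), the stromal enzyme, read 330.1, 263.8 and 355.6 in WT and 500.3, 562.9 and 488.6 in OX, so every OX array was above every WT array. Its log2 change was 0.71 ± 0.14, with a 95% interval from 0.40 to 1.02 and an adjusted p of 0.0125 from limma. It passed in all 14 alternatives, with log2 changes from 0.59 to 0.80.

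APX8 (LOC4329643), the thylakoid-bound enzyme that takes up peroxide at the photosystems, read 5034.2, 5261.4 and 5375.6 in WT and 3721.6, 5021.3 and 3860.1 in OX. Every OX array was lower, though OX replicate 2 missed the lowest WT array only narrowly. The log2 change was -0.33 ± 0.13, with a 95% interval from -0.62 to -0.04 and an adjusted p of 0.114 from limma. Without OX replicate 2 it was -0.46 with an adjusted p of 0.0123, with array weights -0.40 with an adjusted p of 0.0184, and after quantile normalization -0.15 with an adjusted p of 0.32, all from limma. All 6 tested leaf marker genes, at 1 probe set each, also had lower means in OX, with a median log2 change of -0.31. None of these probe sets passed by limma (6 had an unadjusted p under 0.05, against 33.1% of all tested probe sets). A further probe set of rca passed at -0.38 (adjusted p 0.0425 from limma), while a further probe set of the rubisco small subunit was higher, at 0.09.

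Within the plastid pair, the change of APX7 exceeded that of APX8 by 1.04 ± 0.15 on the log2 scale, and within the cytosolic pair that of APX1 exceeded that of APX2 by 0.71 ± 0.23 (0.45 after quantile normalization). In both pairs the within-array differences did not overlap between genotypes (exact permutation p = 0.1 each, two-sided, n = 3 per genotype, and 0.1 after adjustment over 3 pairs). This p is the smallest that 3 arrays against 3 allow, so it cannot pass the threshold. For the plastid pair the separation follows from APX7 being higher and APX8 lower on every OX array, and it adds no separate result. Thus 2 of 2 mitochondrial, 1 of 2 plastid, 0 of 2 cytosolic and 0 of 1 peroxisomal genes rose by limma, against 11.1% of 14616 genes. In the mitochondrial group APX6 lost its call in 6 of 14 alternatives, and predictions for APX5 and APX6 also name the plastid. Of the genes that did not pass, APX1 had an unadjusted p of 0.0112 and APX4 of 0.332. No test was made of compartments as groups, since each holds at most 2 genes.

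**Figure D3:**
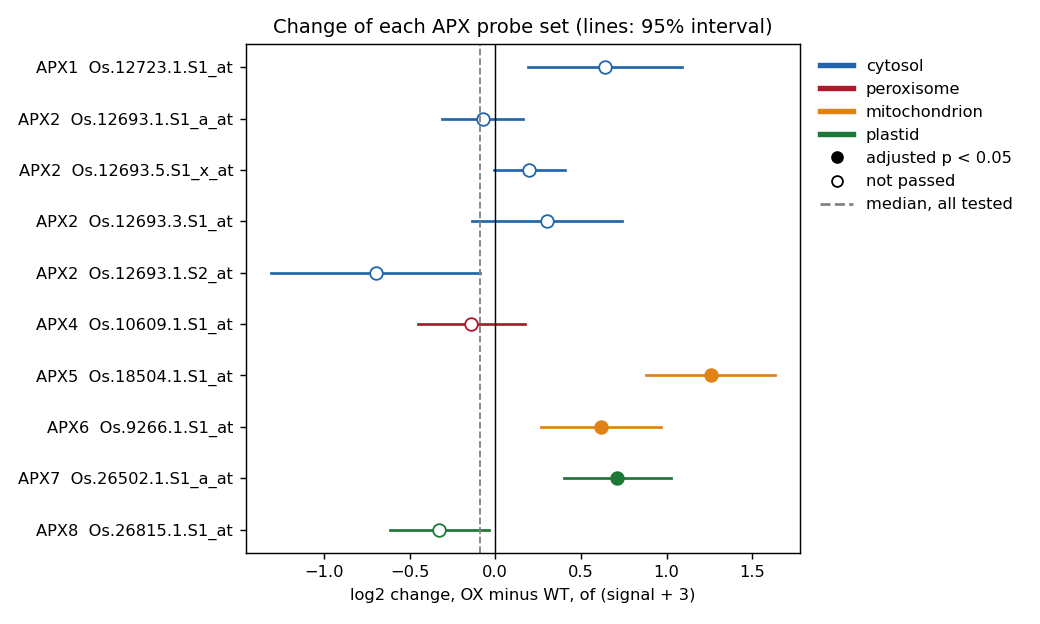
Log2 change (OX minus WT) of log2(signal + 3) for each of 10 ascorbate peroxidase probe sets, coloured by compartment. Circles are limma estimates, filled where the adjusted p was under 0.05, lines are 95% intervals, and the dashed line is the median of all tested probe sets at -0.09. APX5, APX6 and APX7 are filled and lie to the right of 0, while APX8, APX4 and 2 probe sets of APX2 lie to the left with open circles.

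Over all members, 4 probe sets were higher on every OX array, 2 were lower and 4 overlapped. Among all tested probe sets 16.7% were higher and 22% lower without overlap, 38.7% in all. The smallest and largest log2 changes among the members, -0.70 and 1.26, both belonged to probe sets with mean signals under 200 in either genotype. The plot of adjusted p by setting shows APX5 and APX7 below the threshold throughout and APX6 on both sides of it.

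**Figure D4:**
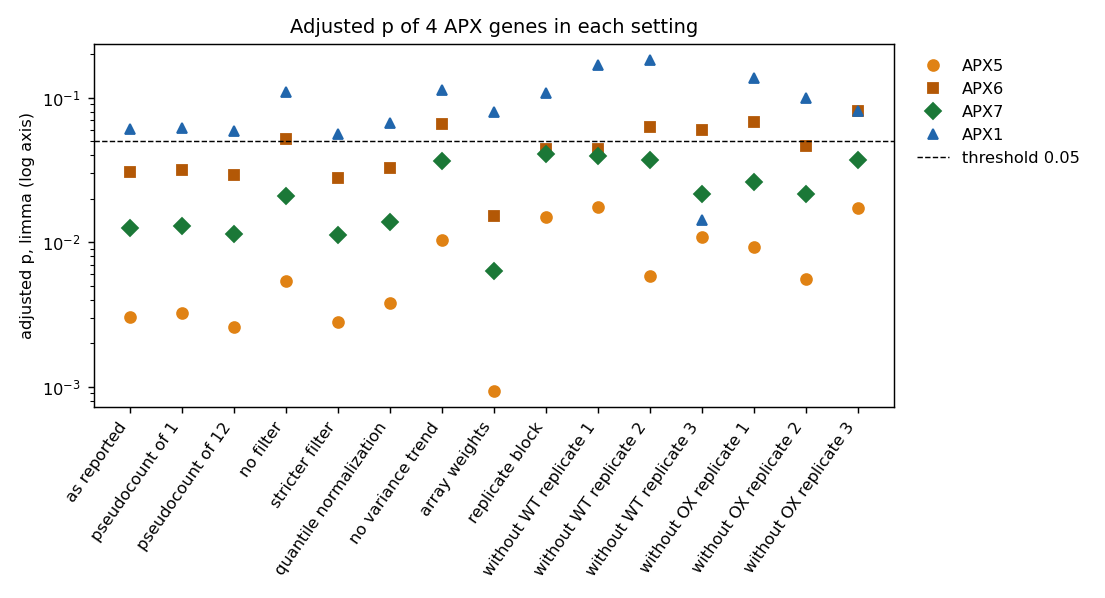
Adjusted p from limma (log axis) of APX1, APX5, APX6 and APX7 as reported and in 14 alternative settings, with a dashed line at 0.05. APX5 and APX7 lie below the line in every setting, APX6 above it in 6 of 14, and APX1 below it in 1, without WT replicate 3.

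The genes whose pattern was most like that of APX5 were sought among 2045 named genes, by the root mean square difference of mean-centred log2 values over the 6 arrays. They were OPR10 (0.09), an oxophytodienoate reductase of the family that serves jasmonate synthesis, CenH3 (0.14), the centromeric histone, and ROMT-17 (0.16). OPR10 read 48.3, 58.0 and 39.1 in WT and 118.2, 132.1 and 124.6 in OX, and like APX5 it was highest in WT replicate 2 among the WT arrays. For APX7 they were ACA8 (0.09), RH10 (0.09), a DEAD-box RNA helicase, and Glup3 (0.11), a vacuolar processing enzyme. These genes were picked for their likeness, so their own changes are not tested here.

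Other genes of peroxide metabolism were taken from 8 lists, with 24 tested genes at 1 probe set each. Of these 1 rose, 5 fell and 18 did not pass by limma, against 19.1% of 14616 genes that passed, 11.1% higher and 8% lower. The median log2 change of the 24 was -0.08. The riser was AOX1, the only gene listed for alternative oxidase, whose product lets mitochondria pass electrons to oxygen without pumping protons. It read 189.4, 308.0 and 332.5 in WT and 703.1, 471.9 and 625.0 in OX, higher on every OX array, with a log2 change of 1.13 ± 0.23 and an adjusted p of 0.0166 from limma. Without OX replicate 3 its adjusted p was 0.0585, and it passed in the other 13 alternatives.

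Among genes for other enzymes that make or remove peroxide, sodA, CAT-B, GLO1 and GLO4 fell. Of 4 superoxide dismutase genes, which produce hydrogen peroxide from superoxide, 1 fell (against 8% of 14616 genes). It was sodA, the manganese form of mitochondria, which read 1590.8, 1738.1 and 1353.5 in WT and 1183.3, 1102.3 and 989.5 in OX (log2 change -0.51 ± 0.12, adjusted p 0.0279 from limma). The copper-zinc forms SodCc2 and cuznsod1 were at 0.42 ± 0.19 and 0.38 ± 0.15 and the plastid form sodCp at -0.04 ± 0.14, and none of these passed.

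Of 2 listed catalase genes, CAT-B fell and CAT-A did not pass. CAT-B read 714.9, 650.2 and 924.8 in WT and 566.2, 457.6 and 422.0 in OX, lower on every OX array, with a log2 change of -0.66 ± 0.16 and an adjusted p of 0.0322 from limma. All 5 probe sets of CAT-B had lower OX arrays without overlap, and 2 of them passed. CAT-A had a log2 change of -0.21 ± 0.11 on its main probe set, whose name ends in x_at. Another CAT-A probe set ending in x_at gave -0.11 (adjusted p 0.466 from limma). The one ending in S1_at was higher in OX, at 0.15 (adjusted p 0.434 from limma), so the direction of CAT-A is not settled.

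Of 5 genes in the list of peroxide sources, 2 fell, against 8% of 14616 genes. Both are genes for glycolate oxidases, the photorespiratory enzymes of peroxisomes. None of the 5 passed with no filter, with no variance trend, or with a WT array or OX replicate 3 left out. GLO1 read 5799.2, 6282.8 and 6383.3 in WT and 3873.6, 4908.8 and 4591.6 in OX, with a log2 change of -0.47 ± 0.11 and an adjusted p of 0.0265 from limma. After quantile normalization it was -0.26 with an adjusted p of 0.0575 from limma. The other probe set of GLO1 gave 0.15 (adjusted p 0.388 from limma), so its probe sets disagree. GLO4 fell by 0.56 ± 0.14 (adjusted p 0.0306 from limma). Its probe set ends in x_at, so its probes can also bind other transcripts, and whether the fall is specific to GLO4 was not tested. GLO3, at -0.48 ± 0.21, and GLO5, at -0.26 ± 0.12, did not pass, although 2 further probe sets of GLO5 did, at -0.64 and -0.43. The remaining gene of the list, OsrbohB, was at -0.16 ± 0.15 and did not pass.

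In the ascorbate-glutathione cycle, 1 of 2 genes of ascorbate recycling fell (against 8% of 14616 genes). MDAR2, a monodehydroascorbate reductase, read 2903.0, 3186.3 and 3121.2 in WT and 1980.7, 2369.9 and 2238.2 in OX, lower on every OX array, with a log2 change of -0.49 ± 0.10 and an adjusted p of 0.0168 from limma. MDAR5 was at 0.04 ± 0.09. The glutathione reductase gene RGRC2 was at 0.07 ± 0.09 and GSH1-1, of glutathione synthesis, at 0.17 ± 0.10, and 0 of these 2 passed by limma, with 0 at an unadjusted p under 0.05. Of the further probe sets of GSH1-1, 1 was higher on every OX array, at 0.27 with an adjusted p of 0.128 from limma, and the other was at -0.06.

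None of 3 genes of ascorbate synthesis passed by limma, and 0 had an unadjusted p under 0.05 (GME-1 at -0.33 ± 0.19, GME-2 at 0.16 ± 0.16 and GLDH1 at -0.05 ± 0.18). None of 5 peroxiredoxin genes passed by limma, with 2 at an unadjusted p under 0.05. PRXIIF, the mitochondrial form, was the highest at 0.45 ± 0.15, and the plastid form PRXIIE-1 the lowest at -0.28 ± 0.11. PRXIIE-2 was at -0.10 ± 0.16 and bas1 at 0.04 ± 0.10. For PRXIIC 1 of 3 probe sets had an adjusted p of 0.0459 from limma, at -0.60, while the others were at 0.04 and 0.19.

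APX5 and APX7 kept their calls whichever array was left out, while each passing gene of these lists lost its call at least once. APX6 also lost its call without some of the arrays. The 5 genes that fell kept their direction in all 14 alternatives, which include settings that keep every array. Among these alternatives MDAR2 passed in 10, sodA in 9, GLO4 in 8, CAT-B in 7 and GLO1 in 6, against 8 for APX6. Without OX replicate 3 none of the 24 genes passed by limma, against 9 without OX replicate 2. The calls over all 28456 tested probe sets moved the same way, from 4578 to 2230 and 5533 in these 2 settings.

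**Figure D5:**
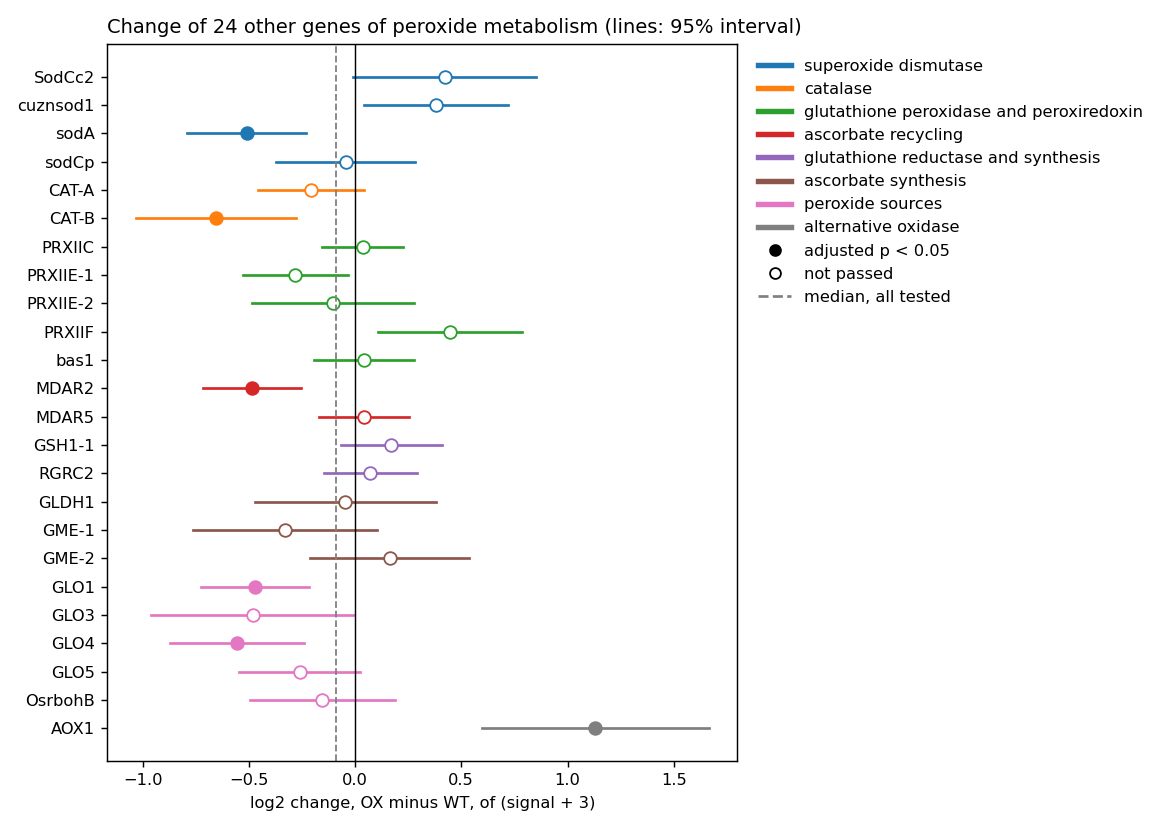
Log2 change (OX minus WT) of log2(signal + 3) for 24 other genes of peroxide metabolism, coloured by list. Circles are limma estimates, filled where the adjusted p was under 0.05, lines are 95% intervals, and the dashed line is the median of all tested probe sets at -0.09. AOX1 is the filled circle to the right, and sodA, CAT-B, MDAR2, GLO1 and GLO4 are filled to the left.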

How the data were processed

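Biotin-labelled cRNA was prepared from 5 µg of leaf RNA for each of 3 WT and 3 OX arrays, per the labels' protocols. The authors deposited linear intensities (signals) per probe set, for which the submitters' processing notes name MAS5 without a version. The mean after trimming 2% at each end was 100.02 on every array, so the scaling was kept. Detection calls were not used. The number of arrays limits the precision.

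Groups came from the titles. Of 57381 probe sets, 187 controls stayed outside the fit. By the platform's annotation 22436 probe sets had 1 gene, 95 had several and 34663 had none. Each of the 17905 genes was found by Entrez ID in RefSeq's table for assembly ASM3414082v1, used only for names and neighbours. Log2(signal + 3) was tested with limma 3.58.1 in R 4.3.3 (genotype alone, variance trend, two-sided, Benjamini-Hochberg) for mean signals of at least 16.8, the median of all values. Differences between 2 genes of a compartment were tested by exact permutation. Compartments are textbook assignments. Named were all members, up to 4 genes of each list with the smallest p (the remaining list genes, the second probe sets and the neighbouring gene were added after their values were seen), and the 3 genes most like each of the 2 members with the smallest p. Members and lists were chosen with earlier results of these data known. The series' design text calls the replicates biological and does not say whether each was a separate plant or a pool. The limma p-values set the genotype difference against the spread between these samples, moderated by the variance trend over all tested probe sets. Alternatives were 2 other pseudocounts (1 and 12), no filter and a stricter one (33.6), quantile normalization, no variance trend, array weights, the replicate block, leaving out each array, and for lists the average of a gene's probe sets.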

Additional observations from a re-analysis of the deposited data

How the results depend on the processing

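APX5 and APX7 passed in all 14 alternatives, with adjusted p from 0.000938 to 0.0175 and from 0.0063 to 0.0406, and the number of APX probe sets passing ran from 2 to 4. APX6 kept its log2 change of 0.62 but not its call with no filter (adjusted p 0.0515) and with no variance trend (0.0661), and leaving out single arrays gave 0.45 to 0.72. APX1 was at 0.51 to 0.87 and APX8 at -0.46 to -0.25 when single arrays were left out, and array weights took APX8 to -0.40. Quantile normalization turned the brightest APX2 probe set from -0.07 to 0.17 and raised its x_at probe set to 0.33, and without the variance trend the S2_at probe set passed at -0.70; the cause was not tested. Over all tested probe sets 4578 passed, 7945 with array weights and 2230 to 5533 without single arrays, with the low values without WT replicate 1 (2408), WT replicate 2 (2287), WT replicate 3 (2483) or OX replicate 3. The share of higher calls was 53.8%, against 46.7% with array weights and 60.9% to 64.1% without 1 WT array. In the pathway lists 6 genes passed, against 2 with no filter, 1 with no variance trend, 11 with array weights and 0 to 9 without single arrays (2 without each WT array, 0 without OX replicate 3 and 9 without OX replicate 2). The differences between genes of a compartment kept their direction in the settings tried, which were chosen after seeing the data. WT and OX share replicate numbers, but same-numbered arrays did not deviate together (r = 0.10, -0.01 and -0.06 for numbers 1, 2 and 3), and not every array correlated best with its own number. With the replicate block 3342 probe sets passed, with 3 of them APX probe sets at adjusted p 0.015 (APX5), 0.0443 (APX6) and 0.0406 (APX7), and 5 pathway genes, without CAT-B. Detection calls were not used here, so the size of differences in dim probe sets such as those of APX2 is uncertain.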
